A study of Mus musculus with 18 samples.

Results

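The response to a high-fat diet was compared between eWAT (epididymal white adipose tissue, a visceral depot beside the testis) and liver of male C57BL/6J mice that were labelled resistant to the diet. A total of 12 of the 18 RNA sequencing libraries of the study enter the comparison, with 3 in each of 4 groups: eWAT of high-fat diet-resistant mice (HR), eWAT of mice on normal diet (ND), liver of HR mice and liver of ND mice. The other 6 libraries, from mice labelled prone to the diet, add only to the estimate of the spread and to the filter on low values. Per the labels, all mice were 17 weeks old, had eaten normal chow for 1 week after arrival at 4 weeks of age, and were then on their diet for 12 weeks. The labels describe 10 mice a group and a random division into groups. They do not say how resistance was judged, how many mice stand behind a library, or whether libraries with the same number in both tissues came from the same mouse. The p-values therefore measure the spread between these libraries, which may be technical in part.

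The value followed for each gene was a tissue difference: the HR minus ND change in eWAT minus the HR minus ND change in liver, each as a difference of mean log2(FPKM + 1). FPKM scales fragments by transcript length and library total. A tissue difference above 0 means that the change in eWAT lay above the change in liver. Of 23474 genes in the table, 10100 had at least 1 FPKM in at least 3 libraries of each tissue and were tested over all libraries, while 4330 passed in eWAT and not in liver, 533 passed in liver and not in eWAT, and 8511 passed in neither.

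Fat and liver meet dietary fat with different machinery. Adipocytes of the epididymal pad store triglyceride, and in obesity macrophages gather in this pad, take up lipid and become rich in lysosomes. Liver makes cholesterol and fatty acids under the SREBP transcription factors, burns fatty acids under PPAR alpha, secretes most complement and clotting proteins, and has its own resident macrophages, the Kupffer cells.

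The liver libraries resembled each other, with median correlations of log2 values to the other liver libraries of 0.981 to 0.991. Among the eWAT libraries used here, HR 2 and ND 1 stood apart, at 0.713 and 0.607 against 0.906 to 0.967 for the rest. These libraries carried transcripts of spermatids, the maturing germ cells of the testis: 14 spermatid genes summed to 19684 FPKM in HR 2 and 107687 FPKM in ND 1, against 12.3 and 23.6 FPKM in HR 1 and HR 3, and 189 and 3441 FPKM in ND 2 and ND 3. The sum of 28 adipocyte genes, which marks the labelled tissue, was 9770 FPKM in HR 2 and 8454 FPKM in ND 1, against 46515 and 41219 FPKM in HR 1 and HR 3 and 65669 and 43621 FPKM in ND 2 and ND 3, while one of them, Cav1, is listed at 0 in every library. The sum of 20 hepatocyte genes was 88569 to 101028 FPKM in HR livers and 79442 to 83011 FPKM in ND livers. The counts of genes that differed, among all genes tested, are therefore given over all libraries and without eWAT ND 1 and HR 2. Leaving these 2 libraries out leaves 9997 genes tested and 2 HR and 2 ND libraries of eWAT. Test results for single genes and gene lists come from the fits without these 2 libraries, unless all libraries are stated. Their eWAT side rests on the 2 HR and 2 ND libraries left. FPKM values carry no fragment totals, so absolute depth is unknown. The steps of low values gave depths of 0.99 to 1.1 for HR livers and 0.88 to 0.99 for ND livers, relative to liver ND 2, and of 1.09, 0.93, 0.74, 1.0 and 1.06 for eWAT HR 1, HR 2, ND 1, ND 2 and ND 3, relative to eWAT HR 3, with the least distinct steps in ND 1 and ND 2.

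Over all libraries 7 of 10100 genes differed between the tissues in their HR response (limma, adjusted p under 0.05, 0.0693% of genes tested), and 624 had an unadjusted p under 0.05. The change in eWAT lay above that in liver for Lepr, Lamb3 and Plxnc1 (0.0297%), and below it for Cfd, Crygn, Nat8f1 and Msmo1 (0.0396%). Across all genes tested the median tissue difference was 0.172 in this fit. It was 0.02 after quantile normalization and -0.007 without eWAT ND 1. Without the 2 libraries 587 of 9997 genes differed (5.87%), 436 with a tissue difference above 0 (4.36%) and 151 with one below 0 (1.51%). At least 15 of the 587 reached 1 FPKM in eWAT in HR libraries and no ND one, or the reverse, and at least 24 did so in liver. The filter let these genes in partly through the group where they are high. Of the 7 genes, 6 were among the 587 with the same sign, in fits that share 16 libraries. The seventh, Crygn, a crystallin gene listed at 0 in all HR eWAT libraries against 14.5, 6.89 and 5.52 FPKM in ND, had passed the eWAT filter through the 3 ND libraries alone, the group where it is high, and missed it without ND 1. The median standard error of the tissue difference was 0.259 without the 2 libraries and 0.529 with them, and the median residual SD within groups was 0.202 in the 7 eWAT libraries left, 0.628 in all 9 and 0.183 in liver. The count without the 2 libraries was 237 when HR 3 of eWAT was also left out and 1193 when ND 3 was, where a lone library stood for its eWAT group and was assumed to vary like the others. Without ND 2 the count was 851, with 42.7% of the genes above 0 against 74.3% in the 16-library fit. Over all libraries the count ranged between 2 and 5 when any 1 library other than eWAT ND 1, eWAT HR 2 or liver HP 2 was left out, and was 101 without HR 2, 13 without ND 1 and 6 without liver HP 2.

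**Figure D1:**
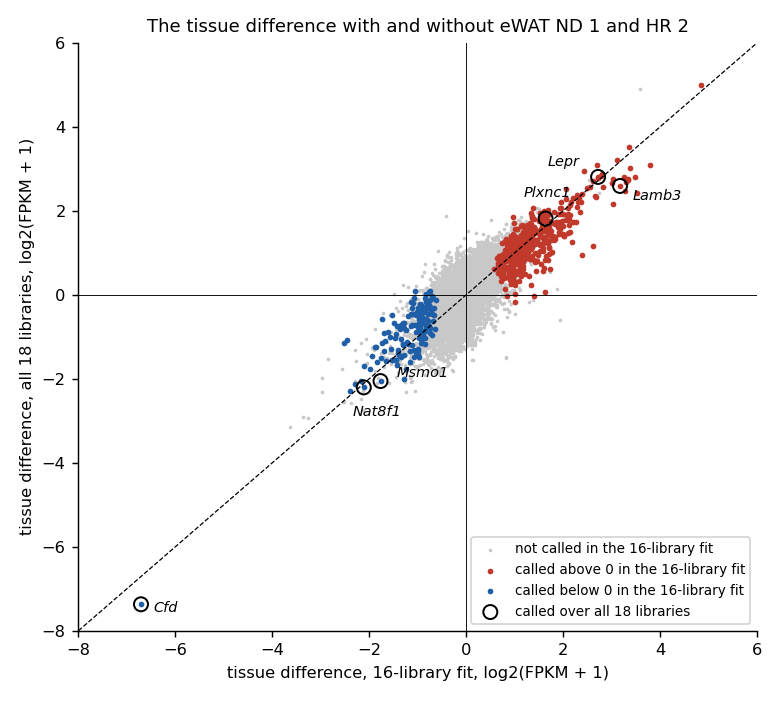
Each point is a gene, with its tissue difference in the 16-library fit on the x axis and over all 18 libraries on the y axis, both on the log2(FPKM + 1) scale. Red and blue mark the 436 and 151 genes called above and below 0 in the 16-library fit, and rings mark the 6 genes called in both. Cfd stands apart at the lower left.

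To see in which tissue the genes moved, each tissue was also fitted alone over the same genes. In eWAT without the 2 libraries 417 genes differed between HR and ND (4.17%), 379 higher (3.79%) and 38 lower (0.38%), or 404 and 82 after quantile normalization. Without ND 2 as well, 353 were higher and 252 lower, so that the higher share was 58.3% against 90.9%. In liver 277 differed (2.77%), 193 higher (1.93%) and 84 lower (0.84%), or 147 and 105 after quantile normalization and 146 and 94 after scaling by median ratios. Of the 436 genes with a tissue difference above 0, 272 were higher in HR eWAT and not called in liver, 29 were lower in HR liver and not called in eWAT, 2 were called in opposite directions, 2 were higher in both tissues and 131 were called in neither tissue alone. Of the 151 genes with a tissue difference below 0, 53 were higher in HR liver and not called in eWAT, 19 were lower in HR eWAT and not called in liver, 3 were called in opposite directions and 76 in neither. Across the 9997 genes the changes in the tissues had a Pearson correlation of 0.024 and a Spearman correlation of 0.046, a description over genes, which are not independent. Over all 9 eWAT libraries 1 gene differed between HR and ND (0.0099%), and 257 had an unadjusted p under 0.05. The eWAT count over 7 libraries was 92 without HR 3, 193 without HR 1, 1109 without ND 3 and 240 to 266 without 1 HP library. The liver count was 74 without ND 1, 132 without ND 3, and 99 to 110 without 1 HR library.

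**Figure D2:**
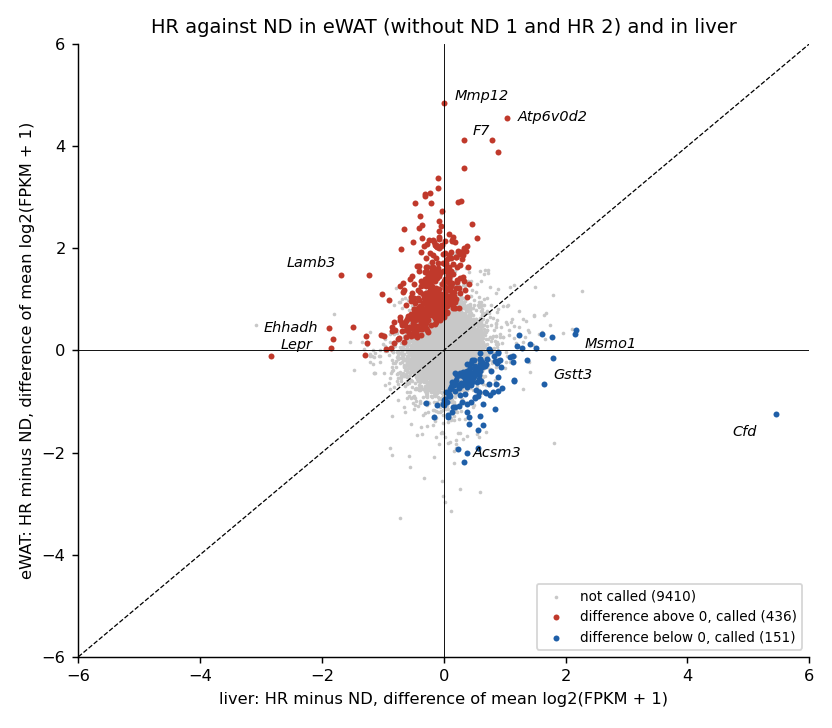
Each of 9997 genes is placed by its HR minus ND change in liver (x axis) and in eWAT without ND 1 and HR 2 (y axis), as differences of mean log2(FPKM + 1). Red and blue mark genes whose tissue difference was called above or below 0; the dashed line marks equal change. Most red genes rise along the eWAT axis near 0 on the liver axis, while Lepr, Ehhadh and Lamb3 lie to the left and Cfd and Msmo1 to the right.

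The largest tissue difference was that of Cfd, adipsin, the adipocyte protease that starts the alternative complement pathway. Cfd stood at 2165, 323 and 1201 FPKM in HR eWAT libraries 1 to 3, against 3048, 4074 and 3626 FPKM in ND. In liver it stood at 134, 96.3 and 126 FPKM in HR, against 1.78, 3.11 and 0.720 FPKM in ND. All HR eWAT libraries lay below all ND ones, and all HR livers far above all ND livers. Of genes tested, 4.01% had no overlap between all HR and ND eWAT libraries, and 25% none between HR and ND livers. Without HR 2 and ND 1 the eWAT share was 42.9%. These shares belong beside each statement of overlap for a gene below. The eWAT change of Cfd was -1.25 (SE 0.29, adjusted p = 0.06), Cfd rose by 5.46 (SE 0.41, adjusted p = 8.02e-05) in HR liver, and the tissue difference was -6.71 (SE 0.63, adjusted p = 2.86e-05), or -7.37 (SE 0.82, adjusted p = 0.00181) over all libraries. Among the 28 adipocyte genes, Adipoq and Lep, the adiponectin and leptin genes, and Retn, Lgals12 and Cav1 are listed at 0 in all 6 HR and ND livers. The sum of the 28 was nonetheless 7075, 6002 and 6559 FPKM in HR livers against 4054, 5827 and 4200 FPKM in ND livers, without overlap. Of the 16 tested, 4 rose in HR liver, against 1.93% of all genes tested, and none fell. The 4 were Cfd, the carbonic anhydrase Car3 (tissue difference -1.73), the fatty acid transporter Cd36 and Lipe, hormone-sensitive lipase. That count was 1 without any HR liver, ND 1 or ND 3, 1 after quantile normalization and 2 after scaling by median ratios or to the same sum. The part of adipocyte transcripts in the rise of Cfd was not tested.

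Lepr, the leptin receptor gene, fell in HR liver. In eWAT it stood at 0.857, 0.541 and 1.1 FPKM in HR and 0.394, 1.43 and 0.877 FPKM in ND, which overlap. In liver it stood at 1.3, 0.464 and 0.488 FPKM in HR, against 14.0, 7.81 and 12.7 FPKM in ND. The livers did not overlap, as for 25% of genes tested. The liver change was -2.83 (SE 0.22, adjusted p = 8.02e-05) and the tissue difference 2.72 (SE 0.34, adjusted p = 0.00033), close to the 2.80 seen over all libraries. Leprot, which overlaps Lepr at its start, had a tissue difference of 0.45 (adjusted p = 0.145), and reads of the shared exons cannot be assigned with certainty.

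Lamb3, a laminin chain of basement membranes, moved in opposite directions in the tissues. It stood at 8.85, 2.49 and 9.35 FPKM in HR eWAT, against 3.18, 2.20 and 3.08 FPKM in ND, and at 5.09, 4.92 and 4.59 FPKM in HR liver, against 18, 17.2 and 18.5 FPKM in ND. HR 1 and HR 3 lay above all ND eWAT libraries and HR 2 did not, while HR and ND livers did not overlap. It rose by 1.48 in eWAT without the 2 libraries and fell by 1.69 in liver (adjusted p = 0.00624 and 3.65e-05), with a tissue difference of 3.17 (SE 0.18, adjusted p = 3.01e-07). Over all libraries it was 2.59 (SE 0.44, adjusted p = 0.0424), a call lost when any 1 library other than HR 2 or ND 1 of eWAT was left out. Plxnc1, a semaphorin receptor outside the naming rule and named after its values were seen, had a tissue difference of 1.64, and of 1.81 over all libraries.

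Nat8f1, an acetyltransferase-family gene, stood at 1.44, 2.60 and 1.97 FPKM in HR eWAT, against 11.8, 5.91 and 7.99 FPKM in ND, and at 128, 129 and 126 FPKM in HR liver, against 71.2, 103 and 86.1 FPKM in ND. Neither tissue's groups overlapped. Its tissue difference was -2.11 (SE 0.23, adjusted p = 0.000111), with a fall of 1.55 in eWAT and a liver change of 0.56 (adjusted p = 0.0668). The call over all libraries was lost without HR 1, HR 3, HP 2 or ND 3 of eWAT, or any HR liver, ND 1 or ND 3 of liver. Msmo1 is described with the cholesterol genes.

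**Figure D3:**
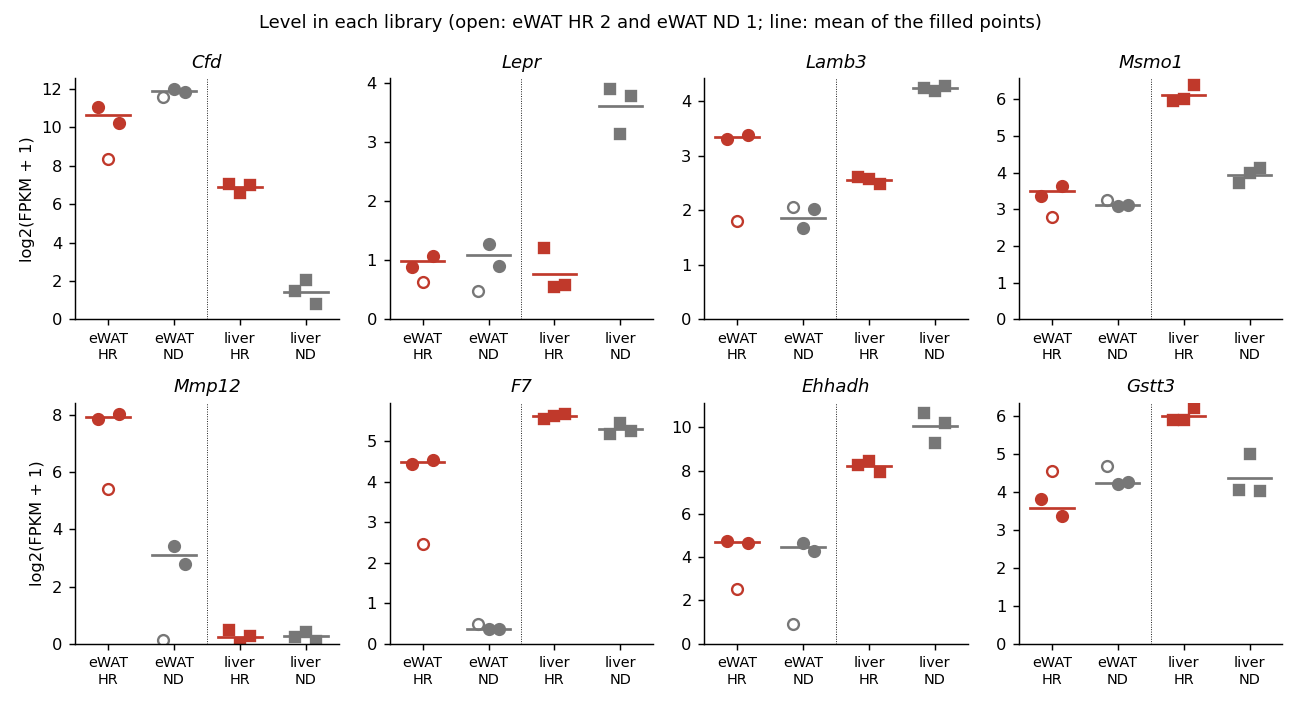
Level of 8 genes in each library as log2(FPKM + 1), with HR (red) and ND (grey) of eWAT (circles) to the left of those of liver (squares). Open circles are eWAT HR 2 and ND 1, and lines are means of the filled points. Cfd, Lepr, Msmo1, Ehhadh and Gstt3 show their larger step in liver, Mmp12 and F7 in eWAT, and Lamb3 steps in opposite directions.

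Many macrophage and lysosome genes rose in HR eWAT. Of all genes tested, 4.36% had a tissue difference above 0 and 1.51% below. In the single tissues 3.79% rose in HR eWAT and 1.93% in HR liver, shares to set beside each list below. Over all libraries, the macrophage, lysosome, matrix, MHC class II and branched-chain amino acid lists had 0 called tissue differences. The cholesterol, adipocyte and acute-phase lists had 1 each there, below 0. Of 20 general macrophage genes tested, 11 had a tissue difference above 0 and none below, 15 rose in HR eWAT, and none was called in liver. Of 17 genes of lipid-associated macrophages, 12 had a tissue difference above 0 and none below, 11 rose in HR eWAT and 2 in HR liver, where the count was 0 without ND 1, ND 3, HP 1, HR 2 or HR 3 and 1 without HR 1. The median tissue difference was 1.51 for the general list and 1.73 for the lipid-associated list, against -0.005 over all genes tested, while 4 Kupffer cell genes had a median of -0.10 with no call. In bulk tissue, more cells of a type and more RNA per cell cannot be told apart. Summed over 23 macrophage genes, the level was 2478, 996 and 2952 FPKM in HR eWAT and 1605, 968 and 833 FPKM in ND, so that HR 1 and HR 3 lay above every ND library and HR 2 did not. In liver the sum was 84.3 to 212 FPKM in HR and 120 to 165 FPKM in ND, which overlap. The sum of 6 Kupffer cell genes was 49.8, 23.2 and 52.6 FPKM in HR eWAT and 8.09, 44.3 and 40.6 FPKM in ND, and 51.04 to 127 FPKM in HR liver and 62.8 to 87.3 FPKM in ND. Here too HR 1 and HR 3 of eWAT lay above every ND library and HR 2 did not, and the liver groups overlapped. Of the 6 only Clec4f, which defines Kupffer cells, is listed at 0 in all HR and ND eWAT libraries.

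Mmp12, macrophage elastase, had the largest tissue difference above 0. It stood at 232, 41.5 and 259.9 FPKM in HR eWAT, against 0.0959, 9.70 and 5.95 FPKM in ND, and at no more than 0.381 FPKM in any HR or ND liver, so that it passed the liver filter through the HP livers alone. All HR libraries of eWAT, HR 2 included, lay above all ND ones, as for 4.01% of genes tested. The tissue difference was 4.84 (SE 0.40, adjusted p = 9.88e-06) and came from eWAT, where the change was 4.84. Over all libraries it was 4.99 (SE 1.02, adjusted p = 0.143).

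Cathepsin S, the antigen-processing protease encoded by Ctss, stood at 289.6, 61.6 and 312 FPKM in HR eWAT, against 5.26, 45.9 and 34.3 FPKM in ND, and at 6.22, 12.9 and 12.0 FPKM in HR liver, against 12.2, 13.2 and 17.5 FPKM in ND. The eWAT groups did not overlap and the liver groups did. Its tissue difference was 3.36 (SE 0.39, adjusted p = 0.000154). Cd68, a macrophage endosomal glycoprotein, stood at 129, 27.6 and 171 FPKM in HR eWAT, against 7.19, 27.0 and 19.9 FPKM in ND, with a tissue difference of 3.02 (SE 0.48, adjusted p = 0.00194). Atp6v0d2, a proton pump subunit of macrophages and osteoclasts, rose in both tissues, by 4.55 in eWAT and 1.04 in liver, with levels of 46.4, 6.29 and 59.9 FPKM in HR eWAT against 2.04, 1.42 and 1.16 in ND, and of 2.12, 3.38 and 2.95 FPKM in HR liver against 0.304, 1.91 and 0.642 in ND.

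Other myeloid genes, and Atf3, followed the same pattern, without overlap of HR and ND in eWAT over all 6 libraries. The inhibitory antagonist of interleukin 1, Il1rn, stood at 14.0, 3.82 and 17.7 FPKM in HR eWAT, against 0, 0.700 and 0.154 FPKM in ND (tissue difference 3.24). The myeloid hexokinase Hk3 stood at 20.1, 3.01 and 24.5 FPKM in HR eWAT, against 0.743, 1.68 and 2.01 FPKM in ND (3.34). The lysosomal peptide transporter Slc15a3 stood at 21.9, 3.56 and 22.4 FPKM in HR eWAT, against 0.994, 1.52 and 1.97 FPKM in ND (3.30). The myeloid receptor gene Cd300c2 (3.48), the scavenger receptor Msr1 (1.96) and the stress-induced transcription factor Atf3 (3.37) did likewise, with adjusted p between 2.5e-05 and 0.000279 for these 6 genes. None of the 6 was called in liver. Cd84 (2.80) and the actin-capping gene Capg (2.62) were called too, with HR 2 inside the ND range. Mical2, an actin-oxidizing enzyme, stood at 13, 8.03 and 14.2 FPKM in HR eWAT against 1.74, 3.78 and 5.37 FPKM in ND, and had a tissue difference of 1.95.

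Lysosomal enzymes rose in HR eWAT for 14 of 31 members, and 14 had a tissue difference above 0 with none below, at a median of 0.72. Lipa, the lipase that frees cholesterol and fatty acids in lysosomes, stood at 115, 24.7 and 162 FPKM in HR eWAT, against 1.82, 36.4 and 31.2 FPKM in ND, and at 64.5, 87.9 and 79.6 FPKM in HR liver, against 133, 107 and 139 FPKM in ND. HR 2 lay inside the ND range of eWAT, HR livers lay below ND livers without overlap, though the liver change was not called (-0.70, adjusted p = 0.0603), and the tissue difference was 2.69 (SE 0.28, adjusted p = 8.65e-05). The glycosidases Gusb (1.82) and Gla (1.36) were called with eWAT changes of 1.64 and 1.44. Hexa, another lysosomal glycosidase, rose in both tissues, by 1.00 in eWAT and 0.66 in liver, and its tissue difference was not called (0.34, adjusted p = 0.394). The lysosomal tissue difference count was 9 without HR 3, and the count in eWAT alone was 3 without HR 3 and 9 without HR 1. The eWAT count of the lipid-associated list was 6 without HR 3, and that of the general list likewise 6.

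Genes of MHC class II presentation, which show peptides to T helper cells, rose in HR eWAT for all 8 members tested, and 4 had a tissue difference above 0. These 4 were Ctss, the thiol reductase Ifi30 (1.55) and the peptide exchange factors H2-DMb1 (2.09) and H2-DMa (1.46). The antigen-presenting chains H2-Ab1, H2-Aa and H2-Eb1 and the invariant chain Cd74 had eWAT rises of 0.88 to 1.23 and liver changes of -0.82 to -0.59 that were not called, and their tissue differences of 1.59 to 2.02 were not called. The list's tissue difference count was 2 without HR 3 of eWAT and 8 without HR 3 of liver, and its eWAT count was 3 without HR 1 or HR 3 and 5 without HP 3. H2-DMa lost its call without HR 1, HR 3 or ND 3 of eWAT or HR 1, HR 2, ND 2 or ND 3 of liver, and H2-DMb1 without HR 3 of eWAT. Markers of T, natural killer and B cells summed to 248, 107 and 386 FPKM in HR eWAT and 70.8, 193 and 109 FPKM in ND, with Ms4a1, which defines B cells, listed at 0.

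Matrix and fibroblast genes had 7 of 23 tissue differences above 0 and none below, at a median of 1.15. The basement membrane collagen Col4a2 stood at 334, 58.7 and 395 FPKM in HR eWAT, against 8.98, 136 and 186 FPKM in ND (tissue difference 1.36, SE 0.23, adjusted p = 0.00282), with HR 2 inside the ND range. Col6a2 (1.58), which reached 1 FPKM in 1 ND liver and no HR liver, the mural cell receptor Pdgfrb (1.26) and the membrane-anchored protease Mmp14 (1.28) were also called. The main fibrillar collagen gene Col1a1 rose in eWAT by 1.49 and its tissue difference of 1.77 (adjusted p = 0.0737) did not pass, nor did that of Col6a3, at 1.13 (adjusted p = 0.112). In eWAT 11 members rose. That count was 4 after trends in transcript length and GC content were removed, 0 without HR 3, 5 without HR 1, 7 without ND 2 and 5 or 6 without 1 HP library. The tissue difference count was 13 without ND 3 of eWAT or HP 1 of liver and 12 without HP 3 of liver. Endothelial markers summed to 1135, 292 and 861 FPKM in HR eWAT and 276, 641 and 712 FPKM in ND. The part of these cell markers in the results was not tested.

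**Figure D4:**
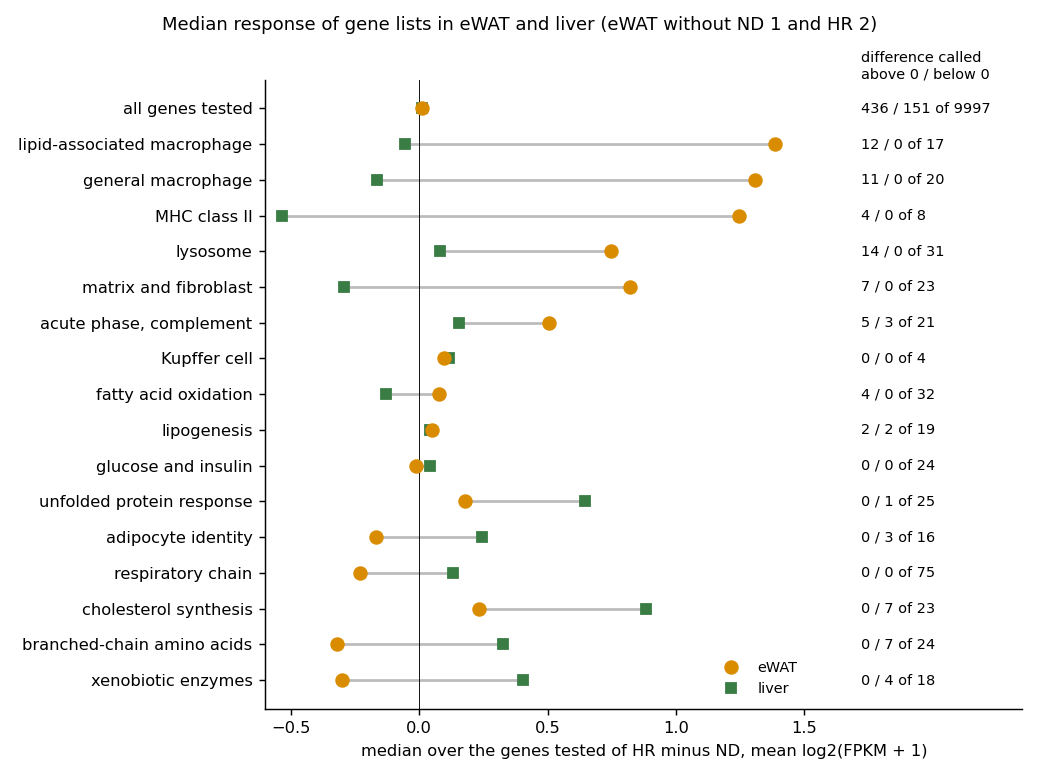
Median HR minus ND change over the tested genes of each list, in eWAT without ND 1 and HR 2 (orange circles) and in liver (green squares), on the log2(FPKM + 1) scale. The column on the right counts genes with a tissue difference called above and below 0. Macrophage, MHC class II, lysosome and matrix lists lie furthest right in eWAT, and the cholesterol and unfolded protein response lists furthest right in liver.

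F7, F10 and Tfr2, genes best known from hepatocytes that the naming rule gave, rose in HR eWAT, while the list of hepatocyte genes did not move 1 way. Of its 9 members tested, Ass1 of the urea cycle rose by 1.78 in eWAT, with a tissue difference of 1.48, and Alb and Cyp2e1 fell, at a median of -0.19, a count of 3 that was 0 without HR 1, HR 3 or HP 2 and 1 without HP 1 or after length and GC trends were removed. Coagulation factor VII, which starts clotting with tissue factor, is encoded by F7, which stood at 20.8, 4.52 and 22.0 FPKM in HR eWAT, against 0.403, 0.285 and 0.297 FPKM in ND. In liver F7 stood at 45.9, 48.0 and 50.4 FPKM in HR, against 35.1, 42.7 and 37.1 FPKM in ND, and the rise of 0.33 was not called (adjusted p = 0.21). The tissue difference was 3.79 (SE 0.29, adjusted p = 6.24e-06). F10, the next factor of the cascade, stood at 5.31, 1.61 and 5.32 FPKM in HR eWAT, against 0.368, 0.206 and 0.390 FPKM in ND, with a tissue difference of 2.19 (SE 0.18, adjusted p = 9.42e-06), and these were the 2 of 9 coagulation genes called. Over all genes tested 4.36% were called above 0. With the filter set over HR and ND libraries alone, F7 and F10 missed the filter and were not tested, and none of the coagulation list was called. The ND eWAT libraries lay below 1 FPKM for both genes, as for Il1rn, so they passed the filter through the high-fat diet libraries alone. Tfr2, an iron-sensing transferrin receptor, stood at 13.3, 2.65 and 18.6 FPKM in HR eWAT, against 1.18, 0.637 and 1.06 FPKM in ND, and at 165, 145 and 144 FPKM in HR liver, against 156, 167 and 159 FPKM in ND, with a tissue difference of 3.28 (SE 0.24, adjusted p = 4.85e-06). For all 3 genes the HR and ND eWAT libraries did not overlap. Alb, albumin, the main hepatocyte transcript, stood at 2.26, 0.121 and 1.62 FPKM in HR eWAT and 1.13, 8.40 and 5.05 FPKM in ND, and fell by 1.37 in the 7-library fit (adjusted p = 0.0402), with a tissue difference of -1.53 (SE 4.05, adjusted p = 0.888). That tissue difference missed the threshold in 26 of 28 alternatives. It passed with ND and HR libraries alone and without HP 3 of liver, a library outside the contrast. Apoa1, the main protein of high-density lipoprotein, stood at no more than 0.480 FPKM in any of these eWAT libraries, against 8269, 5006 and 5703 FPKM in HR liver and 5384, 5559 and 5211 FPKM in ND liver.

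Acute-phase and complement genes divided by sign. Of 21 tested, 5 had a tissue difference above 0 and 3 below, against 4.36% and 1.51% of all genes tested. Saa3, the serum amyloid A of macrophages and adipocytes, stood at 66.5, 18.6 and 92.9 FPKM in HR eWAT, against 2.73, 4.25 and 2.96 FPKM in ND, and at 3.29, 2.14 and 6.42 FPKM in HR liver, against 1.57, 2.48 and 1.15 FPKM in ND (tissue difference 3.33, SE 0.55, adjusted p = 0.00243). Haptoglobin, Hp, which binds free haemoglobin, stood at 3847, 689.7 and 4881 FPKM in HR eWAT, against 219, 1181 and 1158 FPKM in ND, and its liver groups overlapped (tissue difference 1.59, SE 0.30, adjusted p = 0.00561). Complement factor B, Cfb (1.26), which adipsin cleaves, and the central component C3 (1.15), whose fragment C3b holds factor B for that cut, rose in eWAT by 1.34 and 1.05 and had liver changes of 0.08 and -0.10 that were not called. Their tissue differences are opposite in sign to that of Cfd. The list had 4 calls without HR 3, where C3 lost its call.

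Cholesterol synthesis genes rose together in HR liver. Of 23 tested, none was called in eWAT (3 without ND 3, 1 without ND 2 or HR 1), while 14 rose in HR liver and none fell. The median change was 0.23 in eWAT and 0.89 in liver, and 7 genes had a tissue difference below 0, none above. Msmo1, a sterol C4 demethylase, was called in both fits. It stood at 9.36, 5.92 and 11.5 FPKM in HR eWAT, against 8.50, 7.54 and 7.70 FPKM in ND, and at 60.5, 63.8 and 82.8 FPKM in HR liver, against 12.1, 15.0 and 16.4 FPKM in ND. Its eWAT change was 0.40 (adjusted p = 0.251), it rose by 2.17 in liver, and its tissue difference was -1.77 (SE 0.25, adjusted p = 0.0008), or -2.06 (SE 0.33, adjusted p = 0.0296) over all libraries. The call over all libraries was lost when 1 library was left out, unless it was HR 2, HR 3 or ND 1 of eWAT or HP 2 of liver.

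Hmgcs1, which makes the HMG-CoA that enters the pathway, stood at 130.1, 51.3 and 144 FPKM in HR eWAT, against 15.9, 161 and 158 FPKM in ND. In liver it stood at 76.4, 79.6 and 76.1 FPKM in HR, against 42.6, 27.0 and 36.4 FPKM in ND (tissue difference -1.35, SE 0.24, adjusted p = 0.0049). Idi1, the isoprenoid isomerase, stood at 9.86, 17.7 and 10.4 FPKM in HR eWAT, against 11.8, 13.9 and 9.85 FPKM in ND, and at 24.0, 26.4 and 30.2 FPKM in HR liver, against 11.4, 7.32 and 11.3 FPKM in ND (tissue difference -1.55, SE 0.25, adjusted p = 0.00203). Cyp51, the lanosterol demethylase, had a tissue difference of -1.25 (SE 0.26, adjusted p = 0.011), and the other 3 calls were Fdft1, squalene synthase (-1.12), the sterol dehydrogenase Nsdhl (-0.94) and Sqle, squalene epoxidase (-1.94). The HR and ND livers did not overlap for Msmo1, Hmgcs1, Idi1, Cyp51 or Sqle, as for 25% of genes tested. Sqle stood at 4.94, 48.5 and 4.33 FPKM in HR eWAT and 19.2, 2.64 and 9.84 FPKM in ND, highest in HR 2 and ND 1 and higher in ND 3 than in ND 2, the order of the spermatid transcripts among ND libraries. Its tissue difference had an adjusted p of 0.0394 and missed the threshold in 14 of 28 alternatives, among them those without HR 1, HR 3, HP 2, HP 3 or ND 3 of eWAT and without any HR liver, ND 1 or ND 2 of liver. Without HR 1 of eWAT 3 cholesterol genes were called, and Cyp51 was not.

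**Figure D5:**
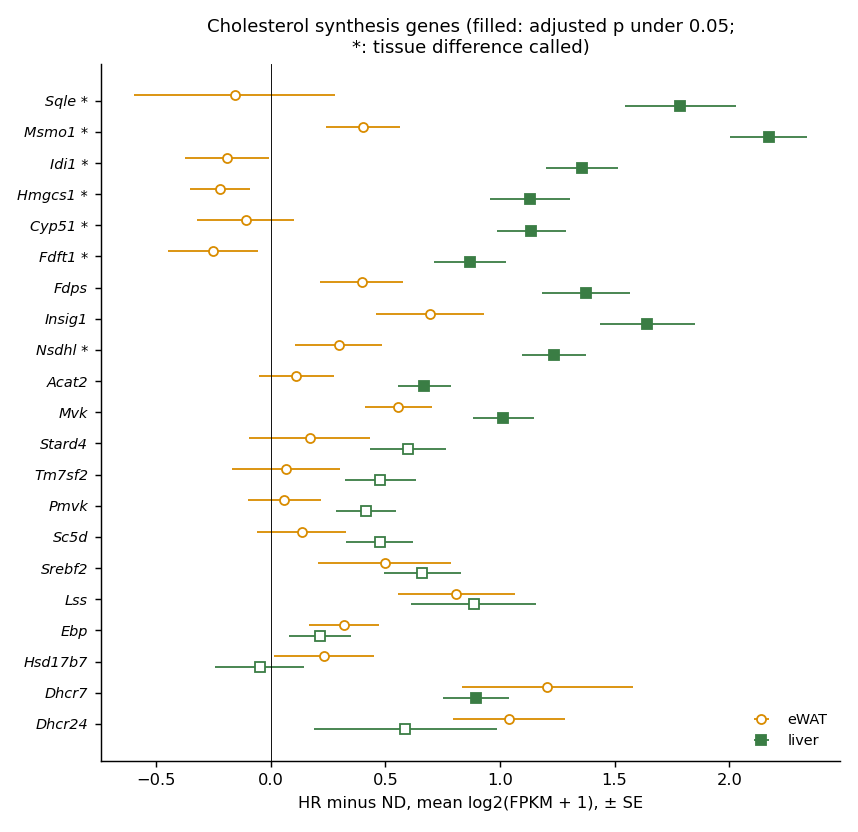
HR minus ND change of 21 of the 23 cholesterol genes tested, as mean log2(FPKM + 1) with its standard error, in eWAT without ND 1 and HR 2 (orange circles) and in liver (green squares). Filled symbols passed in that tissue alone and stars mark the 7 genes with a called tissue difference. The eWAT values of the starred genes lie between -0.25 and 0.40, and their liver values between 0.87 and 2.17.

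The upstream sequences of the called cholesterol genes are shown because SREBP and its partner NF-Y act on such genes through short upstream elements. Windows for 5 of the 7 genes came from a RefSeq promoter table and are printed here as the 250 bases before the start, 5′ to 3′ on the gene's strand, from the GRCm38.p6 build. Capitals mark CCAAT, the NF-Y box, and TCACNCCAC, a sterol element, each searched on both strands, so that ATTGG is CCAAT on the other strand.
Msmo1, chr8:64733579-64733828, minus strand: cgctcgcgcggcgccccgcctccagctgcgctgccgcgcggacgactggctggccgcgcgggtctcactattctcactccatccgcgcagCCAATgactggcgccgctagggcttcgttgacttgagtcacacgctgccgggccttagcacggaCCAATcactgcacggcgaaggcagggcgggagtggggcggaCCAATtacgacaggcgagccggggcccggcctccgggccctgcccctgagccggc
Hmgcs1, chr13:119690101-119690350, plus strand: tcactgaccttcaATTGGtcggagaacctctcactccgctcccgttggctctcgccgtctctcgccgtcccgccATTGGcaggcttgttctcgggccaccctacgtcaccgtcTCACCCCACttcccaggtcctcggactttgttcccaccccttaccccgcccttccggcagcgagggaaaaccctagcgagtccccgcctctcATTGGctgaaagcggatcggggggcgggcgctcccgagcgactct
Idi1, chr13:8885356-8885605, plus strand: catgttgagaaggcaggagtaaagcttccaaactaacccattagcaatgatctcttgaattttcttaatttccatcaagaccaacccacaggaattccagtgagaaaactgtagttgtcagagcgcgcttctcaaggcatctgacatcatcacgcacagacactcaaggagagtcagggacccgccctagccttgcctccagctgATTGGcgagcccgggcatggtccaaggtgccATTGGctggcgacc
Cyp51, chr5:4104698-4104947, minus strand: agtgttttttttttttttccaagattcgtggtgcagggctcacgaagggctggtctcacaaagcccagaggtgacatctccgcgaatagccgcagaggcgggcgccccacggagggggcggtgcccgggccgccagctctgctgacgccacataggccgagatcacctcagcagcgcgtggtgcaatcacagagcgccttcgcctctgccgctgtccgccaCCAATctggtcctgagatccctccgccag
Nsdhl, chrX:72918271-72918520, plus strand: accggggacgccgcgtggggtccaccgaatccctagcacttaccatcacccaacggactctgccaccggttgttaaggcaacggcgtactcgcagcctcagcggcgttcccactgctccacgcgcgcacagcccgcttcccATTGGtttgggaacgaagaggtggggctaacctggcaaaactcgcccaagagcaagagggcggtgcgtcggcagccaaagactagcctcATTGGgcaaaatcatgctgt

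All 5 windows held at least 1 CCAAT. The box lay 55, 96 and 160 bases before the start in Msmo1, and 45, 176 and 237 bases before it in Hmgcs1. Of the 16 cholesterol genes tested that were matched in the table, 15 held a CCAAT, against 33.8% of 32851 RefSeq windows of the same length. Hmgcs1 alone held the sterol element, 137 bases before the start, a match present in 1.1% of windows. No capitals of that element in the other windows says only that these letters are not there.

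Fatty acid synthesis was mixed. Of 19 lipogenesis genes 2 had a tissue difference above 0 and 2 below, against 4.36% and 1.51% of all genes tested. Counts this small are not read as a result about the list. Fasn, fatty acid synthase, stood at 286, 89.9 and 354 FPKM in HR eWAT, against 34.5, 333 and 287 FPKM in ND, and at 63.4, 66.2 and 40.9 FPKM in HR liver, against 15.5, 21.2 and 20.3 FPKM in ND (tissue difference -1.47, SE 0.36, adjusted p = 0.0274). Its eWAT change was 0.04 and it rose by 1.51 in liver. Srebf1, which encodes the transcription factor of this pathway, rose by 1.33 in liver and its tissue difference of -1.07 (adjusted p = 0.0791) did not pass. Aacs, which charges acetoacetate for lipid synthesis, stood at 10.9, 11.5 and 18.4 FPKM in HR livers, against 1.74, 2.48 and 2.41 FPKM in ND livers, and had a tissue difference of -1.84 (SE 0.34, adjusted p = 0.00491). Acaca, acetyl-CoA carboxylase, differed through eWAT instead, with 32.4, 25.7 and 31.1 FPKM in HR and 8.0, 74.2 and 85.8 FPKM in ND, a fall of 1.3 in the 7-library fit and a tissue difference of -1.14 (SE 0.21, adjusted p = 0.0058). ND 1 lay far below the other ND libraries for this gene. The elongases Elovl5 (0.96) and Elovl3 (1.99) made up the calls above 0, Elovl5 with a liver fall of 0.82. Elovl3 stood at 2.36, 0.386 and 0.782 FPKM in HR eWAT, against 0.220, 0 and 0.0354 FPKM in ND, and passed the eWAT filter through HR 1 and 2 HP libraries alone. Elovl6 fell by 0.89 in liver without a called tissue difference (0.26, adjusted p = 0.735). Scd1, the main desaturase, had a tissue difference of 0.37 (adjusted p = 0.729). The count of 4 was 1 without eWAT HR 1 or liver ND 1, 2 without eWAT HR 3 or any HR liver, and 7 without ND 3 of eWAT. Fasn lost its call without HR 1, HR 3 or ND 2 of eWAT or HR 1, HR 2 or ND 1 of liver, Elovl5 without HR 1, HR 3 or ND 2 of eWAT or HR 3, ND 1 or ND 3 of liver, and Elovl3 without ND 2 of eWAT or any HR liver, ND 1 or ND 2 of liver.

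Of 32 fatty acid oxidation genes tested, 4 fell in HR liver, against 0.84% of all genes, and none rose, at a median of -0.13. Tissue differences lay above 0 for 4 and below 0 for none, against 4.36% and 1.51% of all genes. Ehhadh, a peroxisomal oxidation enzyme and PPAR alpha target, stood at 26.0, 4.80 and 23.9 FPKM in HR eWAT, against 0.912, 24.4 and 18.4 FPKM in ND, and at 309, 351 and 242 FPKM in HR liver, against 1612, 612 and 1197 FPKM in ND. The eWAT groups overlapped and the livers did not, the liver fall was 1.83, and the tissue difference was 2.05 (SE 0.42, adjusted p = 0.00962). Cpt1a, the gatekeeper of fatty acid entry into mitochondria, fell by 0.62 in HR liver, where it stood at 166, 183 and 160.1 FPKM in HR against 262, 254 and 265 FPKM in ND, and had a tissue difference of 1.02 (SE 0.19, adjusted p = 0.00546). Acaa1b, a peroxisomal thiolase (1.45), was called with an eWAT rise of 1.02. Pdk4, which shifts fuel use toward fat, had a tissue difference of 1.04 (adjusted p = 0.242). Cyp4a14, a PPAR alpha target of liver, stood at 1348, 1534 and 1496 FPKM in HR livers against 4395, 2425 and 3767 FPKM in ND livers, and was not tested because eWAT, at under 0.5 FPKM in HR and ND libraries, missed the filter. The tissue difference count was 8 without ND 3, and in eWAT alone 4 genes were called, 3 higher and 1 lower, against 1 or 2 without any eWAT library other than ND 3.

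Enzymes of branched-chain amino acid breakdown had 7 of 24 tissue differences below 0 and none above, at a median of -0.63. The list's median change was -0.32 in eWAT, where none was called (8 without ND 3), and 0.33 in liver, where 2 rose (1 without HR 1, and 0 without ND 1, ND 3, HR 2 or HR 3). Ivd, isovaleryl-CoA dehydrogenase of leucine breakdown, stood at 121, 52.5 and 114 FPKM in HR eWAT, against 29.4, 152 and 144 FPKM in ND, and at 146, 167 and 171 FPKM in HR liver, against 104, 109.7 and 106 FPKM in ND (tissue difference -0.92, SE 0.17, adjusted p = 0.00546). Hibadh of valine breakdown (-0.92) and the subunits of methylcrotonyl-CoA carboxylase Mccc1 (-1.04) and Mccc2 (-0.83) were also called. Without HR 3 of eWAT Hibadh, Mccc1 and Mccc2 lost their calls, and Mccc2 also without HR 1 or ND 2. The count was 12 without ND 3, 3 without ND 2 or HR 1, 1 without HR 3, and 4 without liver ND 1, HR 2 or HR 3. It was 0 with a mouse shared by both tissues as a block and 3 after rescaling to the same sum. The 75 respiratory chain genes tested had a median of -0.40 with no call, or 9 calls without ND 3 and 1 without HR 3.

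Glutathione transferases and Cyp2e1 gave the 4 calls below 0 among 18 xenobiotic genes, with none above. Gstt3 stood at 13.1, 22.4 and 9.25 FPKM in HR eWAT, against 25, 17.7 and 18.4 FPKM in ND, and at 58.8, 59.0 and 73.3 FPKM in HR liver, against 15.7, 31.2 and 15.3 FPKM in ND. The eWAT groups overlapped and the livers did not. It rose by 1.64 in liver and had a tissue difference of -2.30 (SE 0.33, adjusted p = 0.00101). Gsta3 was called in opposite directions, with 51.3, 18.8 and 40.0 FPKM in HR eWAT against 27.0, 112 and 91.4 in ND, and 857, 902 and 1157 FPKM in HR liver against 445, 698 and 495 in ND (tissue difference -1.99, SE 0.28, adjusted p = 0.000904). Gstt1 (-1.53) rose by 0.86 in liver. Cyp2e1, which oxidizes ethanol and ketones, stood at 679, 136 and 573 FPKM in HR eWAT, against 102, 1612 and 1492 FPKM in ND, and fell by 1.31 in the 7-library fit (tissue difference -1.73, SE 0.31, adjusted p = 0.00432). The transferases have similar copies among which FPKM estimation can divide reads.

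Acsm3, Mogat1 and Med18 fell in HR eWAT. Acsm3, a medium-chain acyl-CoA synthetase, stood at 6.42, 4.26 and 2.20 FPKM in HR eWAT, against 0.358, 23.2 and 19.3 FPKM in ND (tissue difference -2.52, SE 0.38, adjusted p = 0.00125). Mogat1, which makes diacylglycerol, stood at 15.8, 3.27 and 8.50 FPKM in HR eWAT, against 3.95, 38.5 and 30 FPKM in ND (tissue difference -2.11, SE 0.48, adjusted p = 0.0181). For both, ND 1 lay with or below the HR libraries while ND 2 and ND 3 lay above them. Med18, a Mediator subunit, stood at 4.73, 3.22 and 3.00 FPKM in HR eWAT and 12.7, 10.4 and 10.6 FPKM in ND, without overlap, and had a tissue difference of -1.34 (SE 0.30, adjusted p = 0.0155). Without HR 3 Mogat1 and Med18 lost their tissue difference calls. Sqor, which oxidizes hydrogen sulfide, fell by 1.04 in eWAT and rose by 0.64 in liver (tissue difference -1.68, SE 0.19, adjusted p = 0.000141), and Slc16a12, a creatine transporter, fell by 0.82 and rose by 0.80 (tissue difference -1.62, SE 0.28, adjusted p = 0.00328). Paqr9 did the reverse, rising by 1.1 in eWAT and falling by 1.01 in liver (tissue difference 2.11, SE 0.28, adjusted p = 0.000493).

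Some called genes stood highest of their eWAT group in HR 2 and ND 1, the libraries with the most spermatid transcripts. Slc16a7, Sqor and Paqr9 stood higher in HR 2 than in ND 1, while the spermatid sum was higher in ND 1. Slc16a7, a monocarboxylate transporter, stood at 8.35, 339 and 10.7 FPKM in HR eWAT and 72.9, 21.1 and 68.5 FPKM in ND (tissue difference -2.46, SE 0.49, adjusted p = 0.00814). Morn2 stood at 3.52, 110.2 and 2.13 FPKM in HR and 355, 8.52 and 23.1 FPKM in ND (tissue difference -2.40, SE 0.65, adjusted p = 0.0424), and Ccdc73 at 5.21, 16.9 and 2.54 FPKM in HR and 54.4, 22.0 and 12.8 FPKM in ND (tissue difference -2.16, SE 0.57, adjusted p = 0.037). HR 2 was the highest HR library and ND 1 the highest ND library for all 3, and for Slc16a7 and Morn2 ND 3, which kept 3441 FPKM of spermatid transcripts in the 16-library fit, lay above ND 2. The high values of Sqor (48.3, 242 and 46.4 FPKM in HR, 147, 95.2 and 102 FPKM in ND) and Paqr9 (20.9, 66.7 and 32.4 FPKM in HR, 59.4, 9.83 and 13.8 FPKM in ND) were also in HR 2 and ND 1. Morn2 lost its call when 1 library was left out, unless it was ND 2 or an HP library of eWAT, and Ccdc73 without HR 3 or ND 2 of eWAT or any HR liver or ND 1 of liver. The part of testis transcripts in the calls was not tested.

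In all, 8 genes were called in the same direction in both tissues without a called tissue difference, 6 of which the naming rule gives. Paqr7, a membrane progesterone receptor, stood at 27.4, 35.2 and 33.3 FPKM in HR eWAT, against 25.6, 17.7 and 16.8 FPKM in ND, and at 67.7, 86.9 and 63.4 FPKM in HR liver, against 39.6, 47.3 and 44 FPKM in ND, without overlap in either tissue, and its tissue difference was 0.06 (SE 0.20, adjusted p = 0.916). The transforming growth factor beta-induced factor Klf10 rose by 0.87 in eWAT and 0.98 in liver, the lysosomal chloride exchanger Clcn7 by 0.94 and 0.57, the dicarboxylate carrier Slc25a10 by 1.14 and 0.52, and Dglucy, a glutamate cyclase, by 0.90 and 0.65. Cdk18, a kinase, rose in both by 2.20 and 0.55 and still differed (tissue difference 1.65, SE 0.39, adjusted p = 0.0207), though not without HR 3 of eWAT.

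Among genes of general interest for fat and liver, most tissue differences did not pass. The glucose and insulin list had no call among 24 genes (2 without ND 2 and 3 without ND 3 of eWAT, 1 without HR 3 of liver), at a median of -0.09, with Insr, the insulin receptor, at -0.47 (adjusted p = 0.199), its adaptors Irs1 at -0.11 (adjusted p = 0.871) and Irs2 at 0.45 (adjusted p = 0.588), and Pck1, the gluconeogenic enzyme, at -0.45 (adjusted p = 0.543). Pck1 fell in eWAT by 1.1 in the 7-library fit. The adipocyte list had 3 of 16 tissue differences below 0, while Pparg, the master factor of adipocytes, had a tissue difference of -0.46 (adjusted p = 0.42), Lpl, lipoprotein lipase, -0.04 (adjusted p = 0.966), and Cidec, a lipid droplet protein, 0.27 (adjusted p = 0.731). In liver Cd36 rose by 0.71 and the droplet coat gene Plin4 by 1.40, with tissue differences of -0.58 (adjusted p = 0.235) and -1.63 (adjusted p = 0.059). Gdf15, a stress hormone, rose by 1.8 in liver, at 6.83, 7.02 and 7.42 FPKM in HR against 1.09, 1.05 and 1.92 FPKM in ND, and its tissue difference was -0.71 (adjusted p = 0.253). The count for the adipocyte list was 1 without ND 2, HR 1 or HR 3 of eWAT or HR 2 or HR 3 of liver, and 5 without ND 3.

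Of 25 genes of the unfolded protein response, which expands the folding capacity of the endoplasmic reticulum, none was called in eWAT (1 without ND 2, 5 without ND 3) and 9 rose in liver. Xbp1, its spliced transcription factor, had the single called tissue difference (tissue difference -0.79, SE 0.21, adjusted p = 0.0431), which missed the threshold in 19 of 28 alternatives, among them those without any 1 of the 16 libraries other than HP 3 or ND 3 of eWAT or HP 1 or HR 3 of liver. The list had 4 tissue difference calls without ND 2 of eWAT and 2 without ND 3 of eWAT or HP 1 of liver. Pdia4 (-0.68, adjusted p = 0.0805) and Trib3 (-0.73, adjusted p = 0.0867) rose in liver by 0.73 and 0.66 without a called tissue difference. The liver count was 4 without ND 1 or HR 3 and 2 without HR 1 or HR 2. Of 19 clock genes tested, 1 had a tissue difference below 0 and 0 above, against 1.51% and 4.36% of all genes tested, at a median of -0.51. In liver 2 of the 19 rose. Counts this small are not read as a result about the list. The clock genes Dbp (-0.51, adjusted p = 0.658), Per1 (-0.82, adjusted p = 0.463) and Arntl (0.60, adjusted p = 0.42) did not pass. Neither did any of 75 ribosomal protein genes (median 0.05), of which 5 were called after length and GC trends were removed.

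Genes under the filter in one tissue stay outside the comparison by its filter, and their levels are given without a test. Gpnmb, a glycoprotein of lipid-laden macrophages, stood at 246, 36.5 and 293 FPKM in HR eWAT, against 2.32, 3.75 and 6.01 FPKM in ND, and below 0.1 FPKM in HR and ND livers. The lipid receptor Trem2 stood at 98.3, 12.1 and 95.5 FPKM in HR eWAT, against 7.58, 2.30 and 2.61 FPKM in ND, and the integrin Itgax at 31.1, 4.38 and 39.5 FPKM in HR against 0.159, 2.23 and 3.28 FPKM in ND. For all 3, each HR library lay above each ND library. Lep stood at 798, 142 and 1193 FPKM in HR eWAT and 7.97, 323 and 317 FPKM in ND, and Adipoq at 1860.1, 346 and 1556 FPKM in HR and 202, 2781 and 1826 FPKM in ND, with HR 2 and ND 1 lowest in their groups. On the liver side Cyp2b9, a female-biased cytochrome P450, stood at 15.6, 12.5 and 10.1 FPKM in HR livers, against 0.999, 4.42 and 0.966 FPKM in ND livers, and G6pc, glucose-6-phosphatase, at 68.7, 77.5 and 83.1 FPKM in HR against 169, 124 and 224 FPKM in ND, both without overlap.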

How the data were processed

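The authors deposited FPKM values per Ensembl gene for 18 libraries, 9 of eWAT and 9 of liver. RNA was taken up in TRIzol and made into mRNA libraries with the TruSeq kit, per the labels' protocols. CASAVA 1.8.2, STAR 2.4.0 and Cufflinks 2.1.1 are named in the submitters' processing notes. What each tool did, the genome build, the annotation and the use of strand stay unstated: not given in the sources used here. Gene names came from a GENCODE table that matched 22671 of 23474 identifiers.

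From the deposited values, log2(FPKM + 1) was fitted in limma 3.58.1 (R 4.3.3) with 6 group means and a variance trend, over genes that reached 1 FPKM in 3 or more libraries of each tissue. Adjusted p is Benjamini-Hochberg over all genes tested, with a threshold of 0.05. Because both tissue difference fits hold all diet groups, the HP libraries add to the spread. Each tissue was also fitted alone. FPKM of a lowly expressed gene moves little on this scale, so its fold change is understated.

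In data simulated on the real means and spreads, the all-library comparison of 10100 genes called 4% of 100 genes given a log2 change of 1, 36% of 100 given a log2 change of 2, and 4 of 9900 unchanged genes. The comparison of 9997 genes without eWAT ND 1 and HR 2 called 37% and 93%, and 14 of 9797 unchanged genes. Noise was drawn independently for each gene and library, and changes were placed in HR eWAT alone. Spread shared across genes was left out, so these rates do not measure false calls in the real data.

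Members, lists and rules were chosen with earlier results of these data known. Named genes were, per fit and sign, up to 12 with the largest difference among called genes whose highest group averaged 5 FPKM or more, genes called in both tissues, a list of genes of interest, and up to 4 members with the smallest p of each list described. Where fewer than 6 of a sign were called, the 6 with the smallest p were taken. Alb, Apoa1, Leprot, Plxnc1 and list members beyond these were added after their values were seen. A few genes are counted in their lists and not reported here by name. Alternatives were another pseudocount, other filters and scalings, other variance models, blocks by replicate number and each library left out. The removal of length and GC trends was chosen after seeing the data. Figures were drawn with matplotlib 3.10.9 (Python 3.11.15).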

Additional observations from a re-analysis of the deposited data

Results flagged for a closer look

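Each result here was singled out because the HR minus ND change differed between eWAT and liver by the limma test of that difference itself. It covers the 7 genes called over all libraries and, of the 587 called without eWAT ND 1 and HR 2, the 71 that the report names, of which the naming rule gave 66. Values are tissue differences on the log2(FPKM + 1) scale in the 16-library fit unless all libraries are stated. F7, F10, Il1rn and Elovl3 in eWAT, and Col6a2 in liver, reached 1 FPKM in only 1 of the HR and ND groups, as did Crygn in eWAT over all libraries.

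Myeloid and lysosomal genes above 0 were Mmp12 (4.84), Atp6v0d2 (3.52), Cd300c2 (3.48), Ctss (3.36), Hk3 (3.34), Slc15a3 (3.30), Il1rn (3.24), Cd68 (3.02), Cd84 (2.80), Lipa (2.69), Capg (2.62), Msr1 (1.96), Gusb (1.82) and Gla (1.36). The stress-induced Atf3 had 3.37. The antigen presentation genes were H2-DMb1 (2.09), Ifi30 (1.55) and H2-DMa (1.46). Clotting, iron and acute-phase genes above 0 were F7 (3.79), Saa3 (3.33), Tfr2 (3.28), F10 (2.19), Hp (1.59), Cfb (1.26) and C3 (1.15). Matrix, cell surface and cytoskeleton genes were Lamb3 (3.17), the semaphorin receptor Plxnc1 (1.64), Mical2 (1.95), Col6a2 (1.58), Col4a2 (1.36), Mmp14 (1.28) and Pdgfrb (1.26). The remaining genes above 0 were Lepr (2.72), Paqr9 (2.11), Ass1 (1.48), Cdk18 (1.65) and the lipid enzymes Ehhadh (2.05), Elovl3 (1.99), Acaa1b (1.45), Cpt1a (1.02) and Elovl5 (0.96).

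Below 0, Cfd had -6.71. Sterol and fatty acid synthesis genes below 0 were Sqle (-1.94), Aacs (-1.84), Msmo1 (-1.77), Idi1 (-1.55), Fasn (-1.47), Hmgcs1 (-1.35), Cyp51 (-1.25), Fdft1 (-1.12), Nsdhl (-0.94) and Acaca (-1.14). Detoxification and amino acid enzymes were Gstt3 (-2.30), Gsta3 (-1.99), Cyp2e1 (-1.73), Gstt1 (-1.53), Mccc1 (-1.04), Hibadh (-0.92), Ivd (-0.92) and Mccc2 (-0.83). Others were Car3 (-1.73), Acsm3 (-2.52), Slc16a7 (-2.46), Morn2 (-2.40), Ccdc73 (-2.16), Nat8f1 (-2.11), Mogat1 (-2.11), Sqor (-1.68), Slc16a12 (-1.62), Med18 (-1.34) and Xbp1 (-0.79). Over all libraries the genes called were Lepr (2.80), Plxnc1 (1.81), Lamb3 (2.59), Msmo1 (-2.06), Nat8f1 (-2.21), Crygn (-3.15) and Cfd (-7.37).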

How the results depend on the processing

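No called tissue difference of a gene given by the naming rule turned its direction in the alternatives run. Ass1, Car3, Fdft1, Nsdhl and Plxnc1, named beyond that rule, were not followed singly in the alternatives. The 7 calls over all libraries became 12 with no filter, 2 after quantile normalization, 1 with ND and HR libraries alone, 0 with 1 variance level per tissue, and 4 with length and GC trends removed, and ranged between 2 and 101 with 1 library left out. The 587 calls without the 2 testis-bearing libraries became 974 with no filter and 344 with ND and HR libraries alone, and ranged between 237 and 1193 with 1 library left out. The 417 calls in eWAT alone became 83 with ND and HR libraries alone, and ranged between 92 and 1109. The 277 calls in liver became 167 after rescaling to the same sum outside spermatid and epididymis genes, and ranged between 74 and 296. The 1 call in eWAT over all libraries became 0 with a pseudocount of 0.1 FPKM, no filter, quantile or median ratio scaling, ND and HR libraries alone, no variance trend, or length and GC trends removed, and ranged between 0 and 12. Across genes, the tissue difference without the 2 libraries had Spearman correlations of 0.14 with transcript length and 0.25 with GC content. Over all libraries they were 0.429 and -0.124. For the HR minus ND change they were -0.057 and 0.415 in eWAT without the 2 libraries, and -0.323 and 0.15 in liver. With both trends removed, the counts were 631 without the 2 libraries, 420 in eWAT without them and 323 in liver. The causes were not tested.

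Deviations from group means of same-numbered eWAT and liver libraries of a diet group had correlations between -0.243 and 0.279. For same-numbered HR and ND libraries of a tissue they lay between -0.723 and 0.473. Such correlations cannot tell whether libraries share a mouse, and the labels do not say, so the main fits used no pairing. With the replicate number as a block, the counts were 4 over all libraries, 473 without the 2 libraries, 88 in eWAT without them, 0 in eWAT over all libraries and 147 in liver. With a block by diet group and number, as if both tissues came from 1 mouse, they were 1 and 210.

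FPKM values carry no fragment totals, so what depth limits could not be measured. With 2 HR and 2 ND libraries of eWAT, 37% of simulated log2 changes of 1 were called.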
